A study of Caenorhabditis elegans with 2 samples.

Results

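The regions described here were 442 strong summits of SNPC-4 occupancy that lay between genes on the autosomes of C. elegans, away from any annotated start or small RNA gene. They were taken from the 30000 candidate regions that the authors called on both replicates pooled, in the ce11 genome build. The members were chosen by a measured value: a member had to be among the 2000 candidates with the highest signal value, the authors' own measure of enrichment at each region. Its summit also had to lie on an autosome, outside every protein-coding gene body and over 200 bp from every RNA gene, pseudogene and protein-coding transcript start of the RefSeq annotation of WBcel235. The 2 piRNA clusters of chromosome IV, from 4.5 to 7.0 Mb and from 13.5 to 17.2 Mb, were left out. The signal of the members is therefore a description and not a finding.

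Occupancy was measured by ChIP-seq in 2 libraries of a single group, labelled as biological replicates 1 and 2, and no conditions could be compared. Both came from strain OP179, with genotype unc-119(ed3) III; wgIs179, whose inserted transgene carries eGFP-tagged snpc-4. The labels give whole organisms at mixed embryonic stages, with males and females pooled, and a fragment size range of 150 to 350. They give snpc-4 as the antibody target without saying whether the tag or the protein itself is bound, and they point to a control experiment that was not analysed here. The depth of the libraries is unknown. All levels below are signal values of the deposited lists, which rank regions within a list. Intervals are Wilson 95% intervals on counts of regions and cover counting error only.

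SNPC-4 is the worm counterpart of the large subunit of SNAPc, a complex that activates genes for small nuclear RNAs. SNAPc binds the proximal sequence element, a short sequence upstream of the genes for these snRNAs, for the spliced leader (SL) RNAs that nematodes join to the ends of messenger RNAs, and for some RNA polymerase III products. In the worm germ line SNPC-4 also occupies the piRNA clusters. The members lay over 200 bp from every annotated gene of these kinds. A protein-coding transcript start, however, lay within 500 bp of the summit in 187 of the 442 (42.3%).

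An element of the annotated promoters was read from the data to see whether the members held it. Among the 83 strong regions at annotated snRNA and SL RNA genes, the 8-letter word with the largest excess over weak candidates was CGGAACCC. Its first 6 letters, CGGAAC, were followed after 8 bases by TGTCGG in 10 of the 26 words found in those regions, and this pair is called the 2-part element below. Both strands were searched within 100 bp of each summit, and up to 1 mismatch was allowed in each part unless said otherwise. The following lines show the element in capitals, with 30 bases on each side, on the strand of the element, from the RefSeq genome of ce11. The first pair stands at annotated genes, an SL2-type RNA gene and an snRNA gene, and the others are members that held the element: the strongest down to rank 166, save those on 1 chromosome whose sequence is not shown, and rank 218 as a further copy of the sequence at rank 89.
sls-2.14 promoter, chrIII:11090536-11090615, minus strand: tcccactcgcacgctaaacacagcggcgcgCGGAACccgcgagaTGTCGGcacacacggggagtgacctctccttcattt
T08G5.11 promoter, chrV:14028645-14028724, minus strand: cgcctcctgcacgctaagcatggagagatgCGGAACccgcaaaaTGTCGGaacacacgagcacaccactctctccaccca
Member of rank 31, chrII:5599665-5599744, plus strand: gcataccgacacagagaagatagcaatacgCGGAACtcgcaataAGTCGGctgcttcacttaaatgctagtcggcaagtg
Member of rank 46, chrIV:991195-991274, plus strand: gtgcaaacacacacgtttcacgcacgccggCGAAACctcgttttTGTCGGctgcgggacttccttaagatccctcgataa
Member of rank 89, chrV:20699045-20699124, minus strand: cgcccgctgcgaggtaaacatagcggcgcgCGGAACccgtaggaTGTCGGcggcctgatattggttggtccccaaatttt
Member of rank 93, chrII:11376938-11377017, minus strand: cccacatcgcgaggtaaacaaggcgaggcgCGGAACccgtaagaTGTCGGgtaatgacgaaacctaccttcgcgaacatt
Member of rank 112, chrII:5200374-5200453, plus strand: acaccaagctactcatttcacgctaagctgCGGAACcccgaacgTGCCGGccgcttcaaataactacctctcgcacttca
Member of rank 127, chrIII:9408486-9408565, plus strand: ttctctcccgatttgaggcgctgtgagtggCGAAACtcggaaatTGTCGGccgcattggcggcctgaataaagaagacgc
Member of rank 158, chrII:8877812-8877891, minus strand: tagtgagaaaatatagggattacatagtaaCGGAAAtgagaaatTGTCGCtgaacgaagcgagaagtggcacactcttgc
Member of rank 166, chrV:9440110-9440189, minus strand: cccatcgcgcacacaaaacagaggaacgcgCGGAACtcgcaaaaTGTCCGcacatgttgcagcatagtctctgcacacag
Member of rank 218, chrV:8014823-8014902, minus strand: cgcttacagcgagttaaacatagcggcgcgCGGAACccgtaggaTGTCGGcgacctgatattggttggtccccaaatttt

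Beyond the letters that were searched, the printed members varied in how far they resembled the annotated promoters. Position by position, the member of rank 89 shared 20 of the 30 bases before the element with the sls-2.14 promoter, and 10 of the 30 bases after it. The member of rank 93 shared 19 of the 30 before and 10 after. The member of rank 166 shared 20 before and 8 after. With the T08G5.11 promoter these 3 members shared fewer of the bases before, at 18, 16 and 16. By comparison the sls-2.14 and T08G5.11 promoters shared 17 of the 30 bases before and 14 of those after. Of the other printed members, rank 218, a copy of the sequence at rank 89, shared 19 of the 30 bases before with sls-2.14. Ranks 31 and 46 shared 14 and 13, ranks 112 and 127 shared 9 and 10, and rank 158 shared 3. The promoter of sup-6, at another of the strong regions used to learn the element, gave another order. With it ranks 89, 93 and 166 shared 13, 15 and 12 of the 30 bases before. Ranks 112 and 127 shared 13 and 15, and rank 158 shared 4. Which members looked most like a promoter thus depended on the promoter taken. The likeness of ranks 89, 93 and 166 to sls-2.14 thus lay mostly upstream of the element, and it is a description of printed sequences with no test.

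Over all members, 73 of 442 (16.5%, interval 13.3 to 20.3) held the 2-part element, against 2.92% of all 30000 candidates. Of the 5993 weak candidates, those ranked below 2000 that meet the same rule of position, 80 (1.33%, interval 1.07 to 1.66) held it. With no mismatch in either part the shares were 37 of 442 members (8.37%) and 25 of 5993 weak candidates (0.417%). The learned 8-letter word alone stood in 39 members (8.82%, interval 6.52 to 11.8), against 1.49% of all candidates and 0.551% of weak ones. The members took no part in choosing the letters of the word and the element, but the weak candidates did. The 2-part form was itself added after the sequences had been seen, so its share is not free of that knowledge. The strong regions at snRNA and SL RNA genes served to learn the element, so their own 39.8% (33 of 83) is no check of it.

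The members were richer in G and C than the weak candidates, and this moved with the element. Median GC content within 100 bp of the summit was 43.8% (quartiles 39.3 and 49.8) in the members and 34.3% (29.9 and 39.8) in the weak candidates. Members with the element had a median of 52.2%, and those without it 42.8%. Among the 734 weak candidates with a GC content at or above the members' median, a comparison chosen after the data had been seen, 7.22% (interval 5.56 to 9.32) held the element. That was under the members' 16.5% and above the 1.33% of all weak candidates.

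Other strong regions without annotation held the element more often than the members did. The share was 32.7% (97 of 297, interval 27.6 to 38.2) in strong unannotated regions inside autosomal genes. On X it was 48.4% (137 of 283, interval 42.6 to 54.2), and 34.4% (56 of 163, interval 27.5 to 41.9) in the X regions that lay outside genes. None of these 3 intervals overlapped that of the members. Of the 3 kinds of strong unannotated region set out here, the intergenic autosomal one had the lowest share. The other regions, in the order given, were richer in G and C, with medians of 47.8%, 50.25% and 48.3% against 43.8%. More of their windows had several genome copies, at 18.2%, 26.9% and 20.9% against 9.05% of members. Copies are not independent cases, and the intervals do not allow for this. The part of GC content and of repeats in the difference was not tested.

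**Figure D1:**
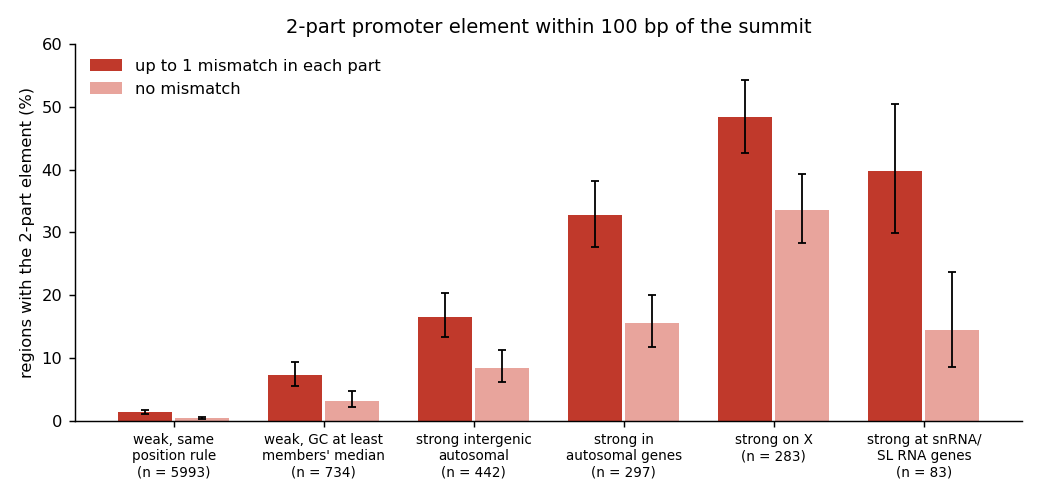
Share of regions with the 2-part element within 100 bp of the summit, in percent, for 6 groups of regions; bars give the share and lines the Wilson 95% interval. The members, at 16.5%, stand above both sets of weak candidates and below the other strong groups.

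Where the element was present it lay close to the summit. Its centre was a median of 22.5 bp (quartiles 11.5 and 41.5) from the summit in the 73 members, and 40 of them (54.8%) had it within 25 bp. At snRNA and SL RNA genes the median was 5.5 bp over 33 regions, and in the 80 weak candidates with the element it was 42.5 bp. With both parts exact and 3 to 14 bases allowed between them, 44 of 45 pairs in the members had 8 bases between them. Many of these pairs stand in copies of a few repeated sequences, described below, and are not independent cases. Of the 73 members, 37 had no mismatch, 24 had 1 and 12 had 2, and 13 held more than 1 element.

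**Figure D2:**
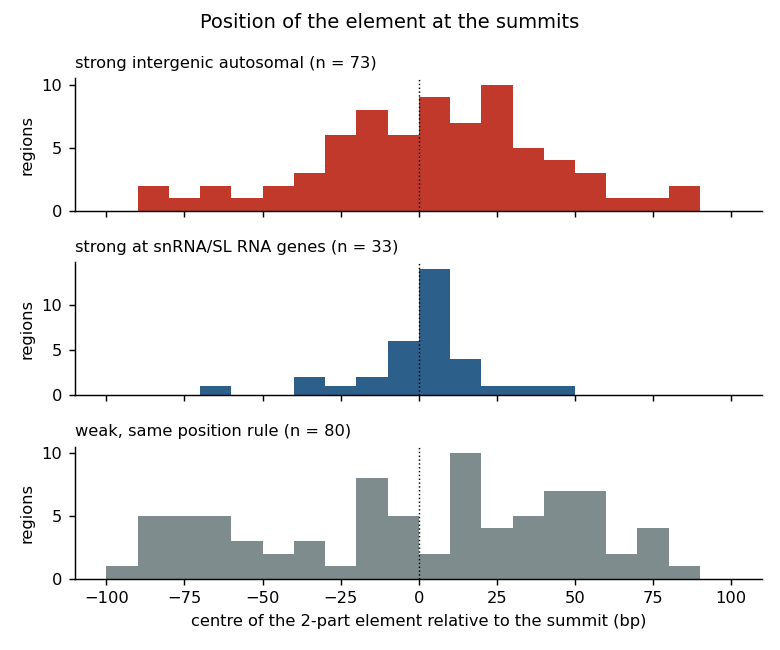
Distance in bp from the summit to the centre of the 2-part element, as counts of regions per 10 bp, for members (n = 73), strong regions at snRNA and SL RNA genes (n = 33) and weak candidates (n = 80). The members cluster around the summit with a median distance of 22.5 bp, wider than the 5.5 bp at annotated genes and narrower than the 42.5 bp of the weak candidates.

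At the annotated genes the element had a direction and a distance, which the search had not used. In 33 of 33 regions it lay on the strand of the snRNA or SL RNA gene, and its first base was 58 to 70 bp before the gene's start (median 62). In the members the rule itself leaves no annotated RNA gene or transcript start at such a place, since it removed summits within 200 bp of them. The next annotated start downstream on the element's strand was 169 to 18805 bp away (median 1876), and it was within 500 bp in 13 of 73 members. The closest was that of tmem-258, a protein-coding gene whose human counterpart is a subunit of the oligosaccharyltransferase, in the member of rank 206.

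The 2 strongest members held the element as single sequences. The member of rank 31, between spig-18 and C17G10.6 on chromosome II (summit 5599717), had a signal of 892 in the pooled list, 435 in that of replicate 1 and 455 in that of replicate 2. It was the nearest of the 20 strongest members to an annotated RNA gene: the non-coding RNA gene C17G10.14 began 234 bp after the first base of the element on the same strand, 212 bp from the summit. The member of rank 46, between egrh-2 and lep-2 on chromosome IV (summit 991240), had 620 in the pooled list, 286 in replicate 1 and 332 in replicate 2. lep-2 encodes a Makorin protein that acts in the timing of development. Both members were ranked among the first 50 in each replicate list.

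Of the 20 strongest members, 13 held the 2-part element and all 20 were among the 2000 strongest regions of both replicate lists. The member of rank 66 lacked it in its full form but held the 8-letter word and TGTCGG elsewhere. It lay between the cytochrome P450 genes cyp-13A2 and cyp-13A3 on chromosome II, with a pooled signal of 365, and 142 and 219 in replicates 1 and 2. The member of rank 89, between nssp-73 and F53F8.5, had a pooled signal of 214, with 107 and 108 in the replicates. Rank 93, between C33B4.4 and C33B4.5, had 210, with 110 and 104. The replicates gave close values for ranks 89 and 93 and differed more for rank 66.

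Members of ranks 110 to 135 all held the element. Rank 110 lay between syp-3, which encodes a protein of the synaptonemal complex, and F39H2.3, with a signal of 173. Rank 112 lay between msp-50, of the major sperm protein family, and ampd-1, an AMP deaminase gene, with 162. These 2 neighbours in rank belonged to repeated families described below. Rank 127 lay between T26G10.1 and T26G10.3 (141). Rank 135 lay between unc-14 and taf-11.2 (135), 204 bp from the start of taf-11.2, which encodes a TFIID subunit of the TAF11 type. After these, members with and without the element were mixed.

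Members of the next ranks without the element lay close to the start of a protein-coding gene, though beyond the 200 bp of the rule. Rank 139, between rpl-15 and K11H12.8, had a signal of 131 and lay 339 bp from the start of rpl-15, a gene of the large ribosomal subunit. Rank 155, between mlcd-1 and idhg-1, had 113 and lay 262 bp from the start of idhg-1, named for the gamma subunit of isocitrate dehydrogenase. Rank 157, between hsr-9 and T05F1.4, had 111. For rank 157 the replicates differed, with 68.7 in replicate 1 and 40.3 in replicate 2. Rank 180, between K05C4.4 and K05C4.7, had 98.6, and rank 191, between acs-19 and rpl-3, had 94.5. Rank 241, between algn-13 and R10D12.13, had 80.2. In each of these 6 members a transcript start lay 202 to 339 bp from the summit.

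The remaining members of the first 20 held the element. Rank 158 lay between T07D4.2 and rha-1, an RNA helicase gene, with a signal of 110. Rank 166, between Y54B9A.1 and wdr-62, had 104, with 40.4 in replicate 1 and 64.5 in replicate 2. Rank 175, between K09H9.7 and K09H9.1, had 99.8. Ranks 206 and 218 carried nearly the same sequence at different places on chromosome V. Rank 206, between Y57E12AL.1 and tmem-258, had 88.3, with 29.4 and 49.8 in replicates 1 and 2. Rank 218, between Y97E10AR.6 and sptl-2, a serine palmitoyltransferase gene, had 83.7, with 49.4 and 31.9. The replicates thus put this pair in opposite orders.

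Below the first 20, the 10 strongest members with the 8-letter word were completed by ranks 292, 304 and 348, all on chromosome V. Rank 292 lay between srab-11 and srab-6, of a chemoreceptor family, with a signal of 69.7. Rank 304 lay between Y44A6D.5 and Y44A6D.6 (67.6), and rank 348 between srh-138 and srw-35, again chemoreceptor genes (60.9). For rank 348 replicate 1 gave 42.7 and replicate 2 gave 17.0, so its signal differed between the libraries more than that of ranks 292 and 304. The element became less frequent down the ranking: it stood in 30 of the 111 strongest members (27.0%), in 12 of the next 111 (10.8%), in 18 of the next 110 (16.4%) and in 13 of the last 110 (11.8%). The fall was between the strongest 111 and the others, with no steady order among those.

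**Figure D3:**
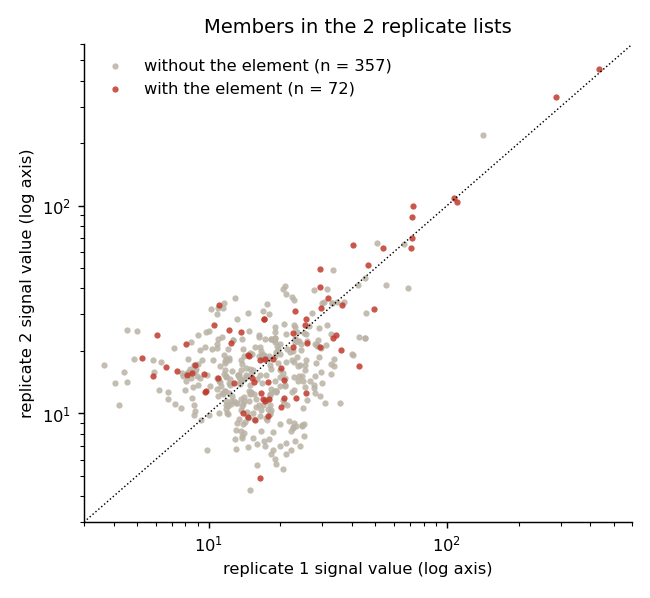
Signal value of the members in the replicate 1 list (horizontal, log axis) and the replicate 2 list (vertical, log axis), for the 429 members found in both lists; the dotted line marks equal values. The strongest members lie near the line, and the many members below about 50 spread on both sides of it.

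Agreement between the replicates was partial. A region of the replicate 1 list and one of the replicate 2 list overlapped a member in 429 of 442 cases, and in 211 cases (47.7%, interval 43.1 to 52.4) both were among the 2000 strongest of their lists. Over all 30000 candidates the share was 4.01%, and over the 2000 strongest 53.8%, but the rule chose the members on the same reads, so nothing is read from these shares. In 108 members replicate 1 alone and in 95 replicate 2 alone ranked the region among its 2000 strongest, and in 28 neither did. The ratio of replicate 2 to replicate 1 had a median of 0.988 with quartiles of 0.668 and 1.37. Members with the element were among the 2000 strongest of both lists in 42 of 73 cases (57.5%, interval 46.1 to 68.2), and those without it in 169 of 369 (45.8%, interval 40.8 to 50.9). These intervals overlap.

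The authors' thresholded ce11 list held 213 peaks, all on chromosome I, and could be set beside the members of that chromosome alone. Of the 121 members there, 77 (63.6%) overlapped a thresholded peak, against 5.06% of all candidates of the chromosome. These peaks come from the same reads as the rule, so the share is a description. With the element the count was 12 of 18, and without it 65 of 103. By chromosome the other members numbered 89 on II, 88 on III, 57 on IV and 87 on V. Chromosome I held 27.4% of the members and 18.8% of the weak candidates.

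Most members with the element belonged to a few repeated sequences. When the windows of the members were matched to each other (at least 75% identity over at least 50 bases), 67 members fell into 10 families and 375 into none. The 3 largest families held 52 members, 50 of which had the element. The smaller families had 3 members or 2. Outside all families, 19 of 375 members had the element. Of the 39 members with the 8-letter word, 33 belonged to the 2 largest families. A copy is not an independent case, so the 73 members with the element represent fewer distinct sequences than their number.

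Family 1 held 25 members, all with the element, at signals of 23.2 to 162 (median 31.4). It lay on the arms of the chromosomes: with each chromosome cut into 3 equal lengths, 15 of its members were in the left one, 9 in the right one and 1 in the middle one. Chromosome V carried 11 of them. Family 2 held 20 members, 18 with the element, at 22.7 to 214 (median 34.6). Its windows were almost wholly soft-masked as repeats by the genome's annotation (median 93.8% of bases), and they matched a median of 223.5 places in the genome over at least 50% of the window. Family 3 held 7 members, all with an element of 2 mismatches, the most that the search allowed, at 22.9 to 48.4. Ranks 112, 292, 304 and 348 belonged to family 1, and ranks 89, 110, 206 and 218 to family 2. Rank 157, which lacked the element, also stood at a copy of family 2.

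Because the families have many copies in the genome, the copies could be compared with each other by whether they held the element. All copies found by matching the members were counted, inside genes and on X too, and a copy was called strong when one of the 2000 strongest summits lay within 100 bp of it. In family 1, 118 of 259 copies with an exact element were strong (45.6%, interval 39.6 to 51.6), 40 of 164 with 1 or 2 mismatches (24.4%, interval 18.5 to 31.5) and 6 of 173 without it (3.47%, interval 1.60 to 7.36). In family 2 the counts were 78 of 137 (56.9%, interval 48.6 to 64.9), 27 of 70 (38.6%, interval 28.0 to 50.3) and 4 of 42 (9.52%, interval 3.77 to 22.1). Family 3 had 1 exact copy, which was not strong. In that family 21 of 57 copies with mismatches were strong (36.8%) and 0 of 127 without the element, with an upper bound of 2.94%. In families 1 and 2 the share fell from exact element to mismatches to no element. Chromosome X held 91 of the 259 exact copies of family 1 and 66 of the 118 strong ones. Of the family 1 copies without the element it held 29 of 173 and 4 of the 6 strong ones. In family 2 it held 35 of the 137 exact copies and 24 of the 78 strong ones. The family 1 shares on the autosomes alone were thus lower than those given.

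Copies without the element were also shorter. Their median length was 85 bases in family 1, against 166 for copies with an exact element, and 75.5 against 359 in family 2. In family 3 it was 64 bases, against 208 for copies with 1 or 2 mismatches. Among copies of at least 100 bases, a limit set after the data had been seen, the strong shares were 108 of 217 with an exact element (49.8%) and 5 of 60 without it (8.33%, interval 3.61 to 18.1) in family 1. In family 2 they were 77 of 133 (57.9%, interval 49.4 to 65.9) and 3 of 16 (18.8%, interval 6.59 to 43.0). In family 3 they were 21 of 54 with mismatches (38.9%, interval 27.0 to 52.2) and 0 of 12 without the element. The upper bound for these 12 was 24.2%. The difference in length was smaller at this limit but remained, with medians of 116 bases without the element and 186 with an exact one in family 1, and 160 and 361 in family 2. The families were found from strong members, which raises the strong shares; with the members taken out, 97 of 238 exact copies of family 1 (40.8%) and 6 of 173 without the element were strong, and in family 2 68 of 127 (53.5%) and 3 of 41 (7.32%). Copies on X are counted in these shares too. How reads that fit several copies were placed is not given in the sources used here, and its part in these shares was not tested.

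**Figure D4:**
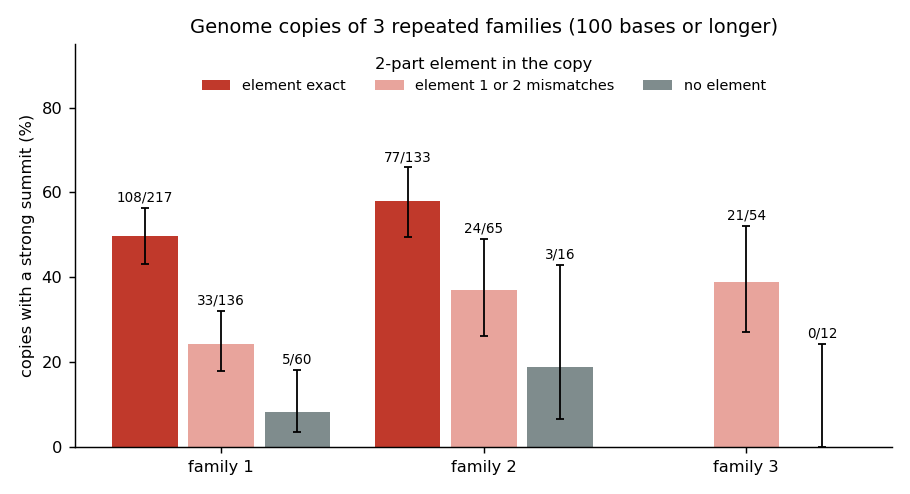
Share of genome copies with one of the 2000 strongest summits within 100 bp, in percent, for copies of at least 100 bases of the 3 largest families, by state of the 2-part element; lines are Wilson 95% intervals and the printed fractions give strong copies over all copies. Family 3 had a single exact copy, which is not drawn. In families 1 and 2 copies with an exact element were strong most often, at 49.8% and 57.9%. Copies on X are included.

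The share of repeats in the members lay between those of the 2 sets of weak candidates. Over 50% of the window was soft-masked, or the window had several genome copies, in 81 of 442 members (18.3%, interval 15.0 to 22.2) in 27.8% of weak candidates and in 10.6% (interval 8.60 to 13.1) of the weak candidates with GC content at or above the members' median. Masking alone gave 14.5% of members, 26.0% of weak candidates and 6.27% of those of high GC content, so the direction turned with the comparison. Several copies alone gave 9.05% of members, 4.67% of weak candidates and 7.49% of those of high GC content. With the element, 33 of 73 members (45.2%) had several copies, and without it 7 of 369 (1.90%).

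The 369 members without the element, the larger number, lay nearer to transcript starts as a group. Their summits were a median of 581 bp from the nearest protein-coding transcript start (quartiles 295 and 1820), against 1036 bp (509 and 2164) in members with the element and 1571 bp (710 and 3083) in weak candidates. A start lay within 500 bp in 170 of 369 (46.1%), in 17 of the 73 with the element (23.3%) and in 17.2% of weak candidates. The nearest start was over 2000 bp away in 82 of the 369 (22.2%), 19 of the 73 (26.0%) and 40.9% of weak candidates. Nearness to a start thus held for a part of the 369. The rule removed every summit within 200 bp of a start, so these regions are those beyond that limit. Over all members the median was 639.5 bp.

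**Figure D5:**
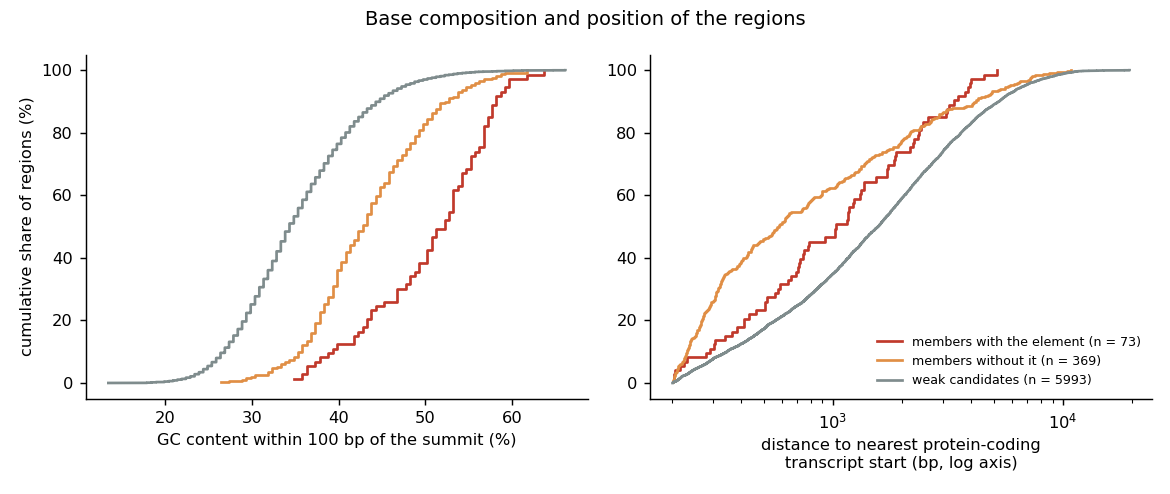
Cumulative share of regions, in percent, by GC content within 100 bp of the summit (left) and by distance to the nearest protein-coding transcript start (right, log axis), for members with the element (n = 73), members without it (n = 369) and weak candidates (n = 5993). Members with the element have the highest GC content, with a median of 52.2%, and members without it lie closest to transcript starts, with a median of 581 bp.

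Ribosomal protein genes were frequent among these neighbours, a comparison that was not planned beforehand. The nearest protein-coding start was that of an rpl or rps gene, which encode proteins of the large and small ribosomal subunits, in 16 members (3.62%), at 229 to 449 bp. It was so in 23 of 5993 weak candidates (0.384%), while 78 of 19983 protein-coding genes (0.390%) carry such a name. None of the 16 held the 2-part element. Beside rpl-15 and rpl-3, the strongest were those at rpl-35 (signal 50.3, 445 bp away), rpl-37.1 (47.4, 399 bp) and rpl-23 (44.7, 269 bp). The translation initiation factor genes eif-3.C, eif-3.E and eif-3.B stood at 271, 210 and 233 bp from the members of ranks 286, 365 and 399, which were noticed after the values had been seen.

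Flanking genes were arranged in tandem around 245 members (55.4%), divergent around 183 (41.4%) and convergent around 14 (3.17%). In weak candidates the shares were 57.9%, 34.7% and 7.33%. Convergent intervals, which have no start on either side, held 9 of the 73 members with the element (12.3%) and 5 of the 369 without it (1.36%). Intervals between genes were shorter around members, with a median of 2282 bp against 5152 bp. Of the members, 23 of 442 had a stronger region within 1000 bp. The same count was not made for other regions, so nothing is read from it.

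The other short words separated the members less. GAGACGCA, chosen because the members themselves were rich in it, stood in 64 members (14.5%) and 3.89% of weak candidates, but in 12.9% (interval 10.7 to 15.6) of the weak candidates with GC content at or above the members' median. GAGAGAGA stood in 51 members (11.5%), in 4.51% of weak candidates and in 13.1% of those of high GC content. Of the 73 members with the element, 1 held GAGACGCA and 0 held GAGAGAGA, against 63 and 51 of the 369 others. The strongest members with each were rank 294, between sec-61.G and F32D8.7 (signal 69.3, 244 bp from the start of sec-61.G, a gene of the protein translocation channel), and rank 291, between K12H4.6 and K12H4.5 (70.1).

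Words of other small RNA promoters were rare. CTGTTTCA, the core of the upstream element of worm piRNA genes, stood in 2 members (0.452%) and 0.901% of weak candidates, and the stronger of the 2 was rank 1539, between C34E10.10 and atp-2, an ATP synthase subunit gene. GTTCGANNC, the B box inside tRNA genes, stood in 6 members (1.36%) and 1.13% of weak candidates, with the strongest at rank 466, between K09B11.4 and K09B11.5. TATAAA stood in 63 members (14.3%) against 23.7%, and a run of 5 T, TTTTT, in 337 (76.2%) against 90.4%. Among the weak candidates with GC content at or above the members' median the shares were 7.08% (interval 5.44 to 9.17) and 69.2% (interval 65.8 to 72.4). Both AT-rich words were thus rarer in the members than in all weak candidates, but more frequent than in those of high GC content. The strongest members with these words were ranks 66 and 46.

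Few members looked like copies of annotated small RNA genes. With the 300 bases on each side of a summit compared with these genes (BLASTN, e-value at most 1e-05), 24 members (5.43%, interval 3.68 to 7.95) matched one, as did 254 weak candidates (4.24%, interval 3.76 to 4.78). The 5 closest matches were all weak members by rank. Rank 1341, between Y38E10A.22 and Y38E10A.24, matched the tRNA gene B0491.t1 over 72 bases at 100% identity. Rank 1486, between slc-9B.2 and nhr-193, matched the tRNA gene F28F5.t1 over 60 bases at 100%. Rank 1358, between Y71G12B.31 and ubc-3, matched the snoRNA gene Y65B4A.11 over 89 bases at 92.1%. Rank 1506, between daf-5 and rpb-11, matched mir-4805 over 75 bases at 93.3%, and rank 1474, between nssp-35 and Y45F3A.5, matched the snoRNA gene Y73F8A.1175 over 48 bases at 93.8%. The signals of these 5 lay between 26.4 and 28.2.

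The element and such a likeness stood together, in order, at a few strong members. At rank 93 a stretch of 56 bases at 85.7% identity with the snoRNA gene Y73B6A.14 began 147 bp after the first base of the element, on the same strand, and matched the gene from its base 102 onward. At rank 175, whose window belongs to the same family of 2, a likeness to the same gene over 113 bases at 73.5% began 65 bp after the element and matched from base 46. At rank 158 a likeness to T07D4.7, an annotated snoRNA gene 528 bp from the summit, began 324 bp after the element. At rank 457, between scc-2 and cat-2, 27 bases like the snRNA gene F56A12.5 began 156 bp after it and matched from base 72. Rank 457 stands in a copy of family 2, and the annotation of Ensembl places its summit inside scc-2. These 4 members were picked after their values had been seen, and whether any of them is transcribed was not measured here. In all, 14 of the 73 members with the element (19.2%) and 10 of the 369 without it (2.71%) had a likeness, and 4 of the 14 were matches to the hairpin of mir-800. At ranks 127 and 752 that match began before the first base of the element and ran over it. At ranks 348, 886, 1189, 1198, 1474, 1479, 1486 and 1943 the likeness lay on the strand opposite to the element. The order seen at the 4 picked members was thus not that of most of the 14. Ranks 348, 886 and 1479 stood in copies of family 1, and ranks 457, 1189, 1486 and 1943 in copies of family 2. The 14 are therefore not independent cases.

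The regions were unannotated in RefSeq by the rule, and a second annotation changed this for a few. In that of Ensembl release 115, 16 of the 442 summits lay inside a protein-coding gene, rank 93 in C33B4.4 among them, and 0 lay within 200 bp of an RNA gene or pseudogene that RefSeq lacks. Members near the limits of the rule were as follows. The last members by rank had signals of 22.66 and 22.65, and the next regions of the same position 22.58 and 22.58. The summits nearest to a transcript start were 202 bp away in 4 members, of which the strongest were ranks 180 and 261 (the latter between mfsd-8.1 and eelo-2), and the farthest left out were 200 bp away, at signals of 45.7 and 23.4. Next to RNA genes and pseudogenes the nearest members lay at 207 bp (rank 974, between sgn-1 and F07H5.13) and 208 bp (rank 498, between Y17D7C.2 and asp-19), and the farthest left out at 194 and 189 bp. Beside the piRNA clusters the nearest members lay 23097 and 49929 bp outside (ranks 1996 and 261), and the nearest regions left out for lying within a cluster were 13670 and 88700 bp inside it.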

How the data were processed

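The authors' deposited lists of candidate regions for ce11 hold a signal value, a -log10 of the q value and a summit for each region. The lists (30000 regions each for replicate 1, replicate 2 and both pooled, and 213 thresholded peaks) came from alignments that included a control, per the notes the authors deposited with them. The aligner, peak caller, depth and treatment of reads with several placements are not stated there. The deposited -log10 q value took its highest value in 32.6% of members, so regions were ranked by the signal value. Lists for ce10 were not used.

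Summits were placed against the RefSeq annotation and genome of WBcel235, and 201 bases around each were searched for words on both strands. Lists were matched by an overlap of at least 1 bp. Genome copies (BLASTN 2.17.0, at least 80% identity over 80% of the window, e-value at most 1e-10) and families were found by sequence. The word search was tested on simulated sequences. Shares are given with Wilson 95% intervals (Python 3.11.15, pandas, SciPy), with no tests, since the regions were chosen by their signal. The members and lists were chosen with earlier results of these data known; the 2-part element, GAGACGCA and the comparison of high GC content were added after the sequences had been seen. Regions named are the 20 members of highest signal, the 10 strongest with the word, the 5 closest to a small RNA gene, the strongest with each other word, and those at the limits of the rule. Exceptions are named as chosen later.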

Additional observations from a re-analysis of the deposited data

How the results depend on the processing

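The number of members was 193 with the 1000 strongest rows, 1193 with 5000 and 238 with a distance limit of 500 bp; ranking by 1 replicate list alone gave 433 to 446. The share with the 8-letter word was 4.28% with 5000 rows and 17.2% with 1 mismatch, and 6.47% to 7.40% with 1 replicate list alone. The share with the 2-part element, whose alternatives were chosen after the data had been seen, was 20.7% with 1000 rows, 9.47% with 5000, 13.0% with a limit of 100 bp, 21.0% with 500 bp and 8.37% with no mismatch; with 1 replicate list alone it was 11.8% to 13.7%. Among weak candidates ranked no lower than 10000 the shares were 2.98% for the element, 0.920% for the word and 8.17% for the word with 1 mismatch. Among weak candidates of high GC content they were 7.22%, 3.54% and 16.5%, the last close to the members' share. The share matched in both replicate lists was 54.9% with 1000 rows and 37.0% with 5000. The median distance to a transcript start was 509 bp with 1000 rows, 1075 bp with 5000, 365 bp with a limit of 100 bp and 1450 bp with 500 bp; with 1 replicate list alone it was 639 to 783.5 bp. Median GC content was 45.8% with 1000 rows, 40.8% with 5000, 48.5% within 50 bp and 41.2% within 150 bp, and 41.8% to 43.8% with 1 replicate list alone. No paired analysis was possible because both libraries belong to 1 group.

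Depth is unknown, and no control library was analysed here, so background is known from weak candidates alone. Those are weak by construction and poorer in GC.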
